A study of Homo sapiens with 12 samples.

Results

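The genes described here are natural killer (NK) cell receptors and the signalling molecules that act behind them: FCER1G, TYROBP, SYK, KLRK1, KLRD1, KLRB1, NCR3, NCAM1, FCGR3A and CD244. They were chosen by a list of gene symbols, which was proposed with earlier results of these data in view, namely their levels in the lines, their SP minus MP differences and the level of FCER1G in SUDHL-1. Of the 10 listed genes, 9 had a probe set annotated to that gene alone, out of 18417 genes named on the array. KLRK1 shares its probe set with a read-through locus and has no value of its own. Values from these contrasts are therefore given as descriptions, and the fits printed beside them support nothing by themselves.

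The samples were established lines of ALCL, anaplastic large cell lymphoma, which arises from T cells. The 4 lines, SUDHL-1, DEL, Karpas299 and SUPM2, are all known to carry a fusion of the NPM1 and ALK genes. Cells in logarithmic growth in RPMI medium with serum were stained with the DNA dye Hoechst and sorted into side population (SP) cells, which pump the dye out, and main population (MP) cells, which keep it. No cells received a drug or a genetic change, and every group shares the dye and the sort. SUDHL-1 gave 3 SP and 3 MP arrays, and DEL, Karpas299 and SUPM2 gave 1 SP and 1 MP array each. The sources used here do not say whether the triplicate sorts came from separate cultures, so the p-values reflect no more than the spread among these arrays, and that may be technical. Each line stands for 1 tumour grown in culture.

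NK receptors fall into activating and inhibitory types, and most activating ones have short tails that cannot signal alone. They pair in the membrane with small adaptors such as FCER1G, TYROBP or CD247, whose tails carry the immunoreceptor tyrosine-based activation motif (ITAM). Once the motif is phosphorylated, it binds the kinase SYK or its T-cell relative ZAP70. ALCL cells often lack parts of the T-cell receptor complex while keeping cytotoxic features shared by killer T cells and NK cells.

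FCER1G and TYROBP, the ITAM adaptors of the list, are shown because they share a role and differed in range, with line means that spanned 6.77 for FCER1G and 0.70 for TYROBP. The line means of the other 7 members spanned 0.39 (NCR3) to 1.36 (NCAM1). Their promoter windows, from 250 bases before to 50 bases after the start site, were taken from RefSeq (GRCh38.p14), which held windows for 6 of the 10 genes. The window of FCER1G is chr1:161215045-161215344 on the plus strand, and that of TYROBP is chr19:35908246-35908545 on the minus strand. Capitals mark matches to any of 8 short motifs on either strand.
FCER1G: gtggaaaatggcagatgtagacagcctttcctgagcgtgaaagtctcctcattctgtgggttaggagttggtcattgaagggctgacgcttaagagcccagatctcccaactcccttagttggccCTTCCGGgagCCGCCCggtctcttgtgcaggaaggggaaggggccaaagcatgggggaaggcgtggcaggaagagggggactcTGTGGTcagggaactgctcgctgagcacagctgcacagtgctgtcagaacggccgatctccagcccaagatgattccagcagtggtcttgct
TYROBP: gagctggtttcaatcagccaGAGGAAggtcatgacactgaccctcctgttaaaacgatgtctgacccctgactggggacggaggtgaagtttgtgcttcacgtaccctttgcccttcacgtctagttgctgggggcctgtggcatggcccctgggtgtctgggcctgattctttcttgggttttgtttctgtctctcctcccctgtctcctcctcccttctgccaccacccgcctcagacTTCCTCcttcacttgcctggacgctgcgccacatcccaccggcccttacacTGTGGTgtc

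In the FCER1G window lay 1 match each to an ETS-type motif (CCGGAAG, minus strand, first base at -125), an SP1-type motif (GGGCGG, minus strand, -115) and a RUNX-type motif (TGTGGT, plus strand, -42). The TYROBP window held 2 matches to a PU.1-type motif (GAGGAA, at -230 on the plus and -10 on the minus strand) and 1 to the RUNX-type motif at position 42. The motifs searched without a match in either window were of the GATA type (AGATAA), the AP-1 type (TGACTCA), the TATA box (TATAAA) and the STAT type (TTCNNNGAA). No match in either window overlapped another. Of 35116 promoter windows of the same length, 10.26% held the ETS-type, 44.95% the SP1-type, 13.07% the RUNX-type and 27.85% the PU.1-type motif. A match describes letters only, and nothing about binding was measured here.

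FCER1G, which signals for Fc receptors and for the NK receptors NCR1 and NCR3, was bright in SUDHL-1 and near the dim end in SUPM2. Its log2 signal was 10.76, 10.64 and 10.58 on the SUDHL-1 SP arrays and 11.12, 10.86 and 11.16 on the SUDHL-1 MP arrays. It was 8.18 on the SP and 7.37 on the MP array of DEL, 8.97 and 8.34 on those of Karpas299, and 4.55 and 3.62 on those of SUPM2. The arrays of the 4 lines did not overlap each other, in the order SUDHL-1, Karpas299, DEL and SUPM2. The narrowest gap between neighbours in that order, 0.16 between the MP array of Karpas299 and the SP array of DEL, was smaller than the SP minus MP difference of either line. As a place among all named genes on the array, FCER1G lay at percentile 97.5 to 98.9 on SUDHL-1 arrays, against 73.4 to 84.6 for DEL, 86.0 to 91.3 for Karpas299 and 13.2 to 26.1 for SUPM2. In such bulk samples, more cells with a transcript and more transcript per cell cannot be told apart.

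**Figure D1:**
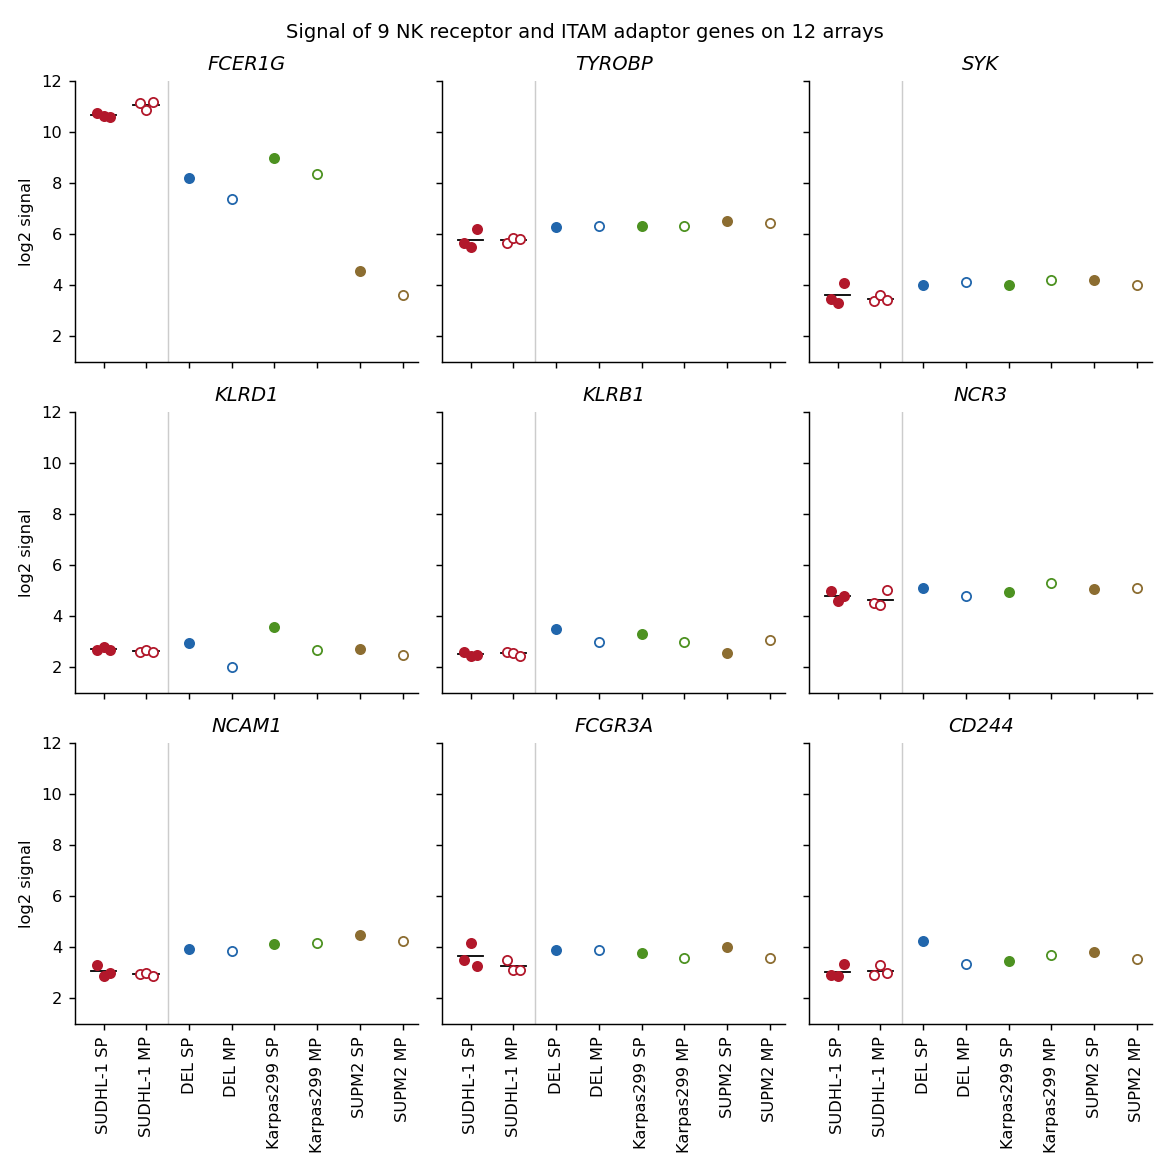
Log2 signal (vertical axis) of the 9 measured genes on 12 arrays, by line and population (horizontal axis). Filled points are SP and open points MP arrays, and bars are means of 3 SUDHL-1 arrays. FCER1G runs between 3.62 and 11.16, while no other gene exceeds 6.52.

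The mean of FCER1G was 10.85 in SUDHL-1 and 6.84 ± 2.43 over the other lines (SD, n = 3 lines), a difference of 4.01 on the log2 scale, or 16.2-fold. This difference was the 10th highest of 18417 genes, and 19 genes (0.103%) had a range of line means at least as wide as the 6.77 of FCER1G, while 10.8% had a range over 2. A gene was called different between SUDHL-1 and the other lines when the difference was at least 1 on the log2 scale and the 6 SUDHL-1 arrays did not overlap the other 6. This rule carries no p-value, since SUDHL-1 is a single line. Of all genes, 5.14% were higher and 11.7% lower by this rule, and of the 9 members FCER1G was higher and NCAM1 lower. Since the members were proposed with this contrast in view, nothing is read from that count.

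SUDHL-1 arrays had lower medians over the named genes (5.25 to 5.37) than the other arrays (5.76 to 5.80), and the median difference over all genes was -0.33. The sources used here do not say whether these arrays were normalized together with the others, so line and array set cannot be told apart in any comparison that involves SUDHL-1. After the columns were quantile normalized again, 1203 genes (6.53%) were higher and 1224 (6.65%) lower, against 946 higher and 2151 lower as deposited, and with arrays centred on their medians 2002 were higher and 839 lower. FCER1G differed by 4.04 after quantile normalization and by 4.47 after centring. Among DEL, Karpas299 and SUPM2 alone, which had like medians, the FCER1G line means still ran from 4.08 to 8.66. Without SUPM2 the difference was 2.64, the lowest of all alternatives, and SUDHL-1 stayed above DEL and Karpas299 on every array.

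TYROBP is the adaptor of activating KIR and TREM receptors. Its signals were 5.65, 5.50 and 6.19 on SUDHL-1 SP arrays and 5.64, 5.86 and 5.82 on SUDHL-1 MP arrays. They were 6.30 and 6.32 on the SP and MP arrays of DEL, 6.31 and 6.31 on those of Karpas299, and 6.52 and 6.44 on those of SUPM2. All SUDHL-1 arrays lay below all other arrays, by a difference of means of -0.59, against -0.33 over all genes. After quantile normalization the difference was -0.16 and after centring -0.13. In percentiles TYROBP lay at 53.8 to 63.9 on SUDHL-1 arrays and 58.3 to 63.5 elsewhere, so that these ranges overlapped.

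SYK, the kinase that docks on phosphorylated ITAMs, was dim throughout, within the lowest 25% of signals on 11 of 12 arrays. Its line mean was 3.54 in SUDHL-1 (3.30 to 4.08), against 4.06 for DEL, 4.11 for Karpas299 and 4.12 for SUPM2, and each neighbour in this order overlapped the next. The difference between SUDHL-1 and the other lines was -0.56, and -0.11 after quantile normalization. Its relative ZAP70, picked after its values were seen, had a line mean of 4.72 in SUDHL-1, against 5.03 for DEL, 7.79 for Karpas299 and 5.75 for SUPM2.

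**Figure D2:**
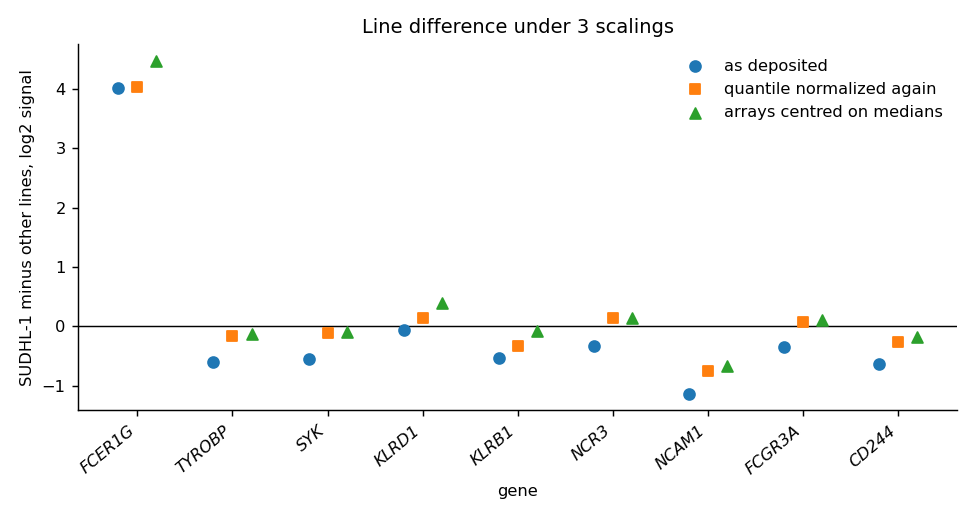
SUDHL-1 minus the mean of DEL, Karpas299 and SUPM2 on the log2 scale (vertical axis) for each measured gene (horizontal axis), as deposited (circles), after another quantile normalization (squares) and with arrays centred on their medians (triangles). FCER1G stays at 4.01 to 4.47, NCAM1 lies at -1.13, -0.75 and -0.67, and KLRD1, NCR3 and FCGR3A change sign with the scaling.

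The lectin-like receptor genes with a probe set of their own, KLRD1 and KLRB1, were dim on every array. KLRD1, which encodes CD94, the partner of NKG2 receptors, had signals of 2.66, 2.78 and 2.70 on SUDHL-1 SP arrays and 2.59, 2.69 and 2.59 on SUDHL-1 MP arrays. It had 2.95 and 2.03 on the SP and MP arrays of DEL, 3.56 and 2.69 on those of Karpas299, and 2.71 and 2.47 on those of SUPM2. No pair of neighbouring lines was apart, and the gene lay at percentile 0.386 to 13.2. KLRB1, which encodes CD161, lay at 2.45 to 2.61 on SUDHL-1 arrays and at 2.55 to 3.50 elsewhere, within the lowest 25% of signals on 12 of 12 arrays. KLRC1, the NKG2A chain that pairs with CD94, had in contrast a line mean of 2.48 in SUDHL-1, against 6.60 for DEL, 7.65 for Karpas299 and 3.31 for SUPM2.

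KLRK1 encodes NKG2D, an activating receptor that signals through the adaptor HCST. The probe set that holds it is annotated to KLRK1 and to the read-through locus KLRC4-KLRK1, whose transcripts it cannot separate. That shared probe set stood at 2.42, 2.48 and 2.37 on SUDHL-1 SP arrays and 2.43, 2.44 and 2.30 on SUDHL-1 MP arrays. It stood at 6.08 and 3.42 on the SP and MP arrays of DEL, 5.40 and 5.79 on those of Karpas299, and 2.64 and 2.83 on those of SUPM2. DEL SP and both Karpas299 arrays were thus well above all others, and DEL was the line with the wide gap between its populations, seen on 1 array each. Another probe set, annotated to the read-through locus alone, lay at 2.61 to 3.04 on SUDHL-1 arrays and 2.49 to 3.77 elsewhere. These probe sets were picked out after the annotation and their values were seen.

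NCR3, which encodes the activating receptor NKp30, had a line mean of 4.73 in SUDHL-1, against 4.96 for DEL, 5.12 for Karpas299 and 5.07 for SUPM2, and every pair of neighbours overlapped. The array holds 3 probe sets for NCR3 with identical values, which were counted as 1. FCGR3A, the Fc receptor CD16 that triggers killing of antibody-coated cells, lay at 3.13 to 4.16 on SUDHL-1 arrays and 3.58 to 4.001 elsewhere. A second probe set, shared by FCGR3A and its near copy FCGR3B, lay at 2.53 to 3.01 on SUDHL-1 arrays and 2.98 to 3.56 elsewhere. FCGR3A was within the lowest 25% of signals on 11 of 12 arrays, and probes of the near copies may share signal. SUDHL-1 SP array 2 (4.16) gave its highest value.

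NCAM1, the adhesion molecule CD56 used to define NK cells, was dim on every array but ordered by line. Its signals were 3.30, 2.89 and 2.98 on SUDHL-1 SP arrays and 2.97, 3.01 and 2.87 on SUDHL-1 MP arrays. They were 3.93 and 3.86 on the SP and MP arrays of DEL, 4.13 and 4.17 on those of Karpas299, and 4.47 and 4.25 on those of SUPM2. The lines did not overlap. SUDHL-1 lay 1.13 below the mean of the other lines, but 0.75 below after quantile normalization and 0.67 below after centring, so that neither kept the call. CD244, a SLAM-family receptor that binds CD48, was lower in SUDHL-1 on all arrays (2.86 to 3.33) than in the other lines (3.36 to 4.23), with a difference of -0.63 that was -0.27 after quantile normalization. Over the whole array 29.1% of genes lay lower in SUDHL-1 without overlap and 7.51% higher, so that such a small offset is common here.

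The second question was whether SP and MP cells differ. In SUDHL-1, FCER1G averaged 10.66 ± 0.09 on SP arrays and 11.05 ± 0.16 on MP arrays (SD, n = 3 each), a difference of -0.39 (SE 0.15). Every SP array (10.58 to 10.76) lay below every MP array (10.86 to 11.16), as did 3.42% of all genes, and of the 9 members FCER1G alone had populations that did not overlap. The SP arrays lay above the MP arrays for 3.74% of genes and for 0 members. Outside SUDHL-1, SP exceeded MP for FCER1G, by 0.81 for DEL, 0.62 for Karpas299 and 0.94 for SUPM2. KLRD1 and FCGR3A were also higher in SP cells of each of these 3 lines, as were 14.6% of all genes. Limma gave FCER1G an adjusted p of 1 in SUDHL-1, where 0.0% of the 18417 genes passed at 0.05 and 3.13% had an unadjusted p under that. Over the 4 lines the difference was 0.50 ± 0.61 (SD, n = 4 lines, higher in 3 of 4), with a limma adjusted p of 0.918, and here too 0.0% of genes passed, with 4.91% at an unadjusted p under 0.05. A fit over all 12 arrays, added after the opposite signs were seen, put SUDHL-1 1.18 below the other lines in its SP minus MP difference (SE 0.20, limma adjusted p = 0.738). In that fit 0.0% of genes passed after adjustment and 3.59% had an unadjusted p under 0.05. SUDHL-1 is a single line, so the SE and p of that fit reflect mostly the spread among its arrays, not among lines. SP arrays wholly apart from MP arrays in SUDHL-1, with the opposite sign in each other line, were seen for 0.744% of genes.

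**Figure D3:**
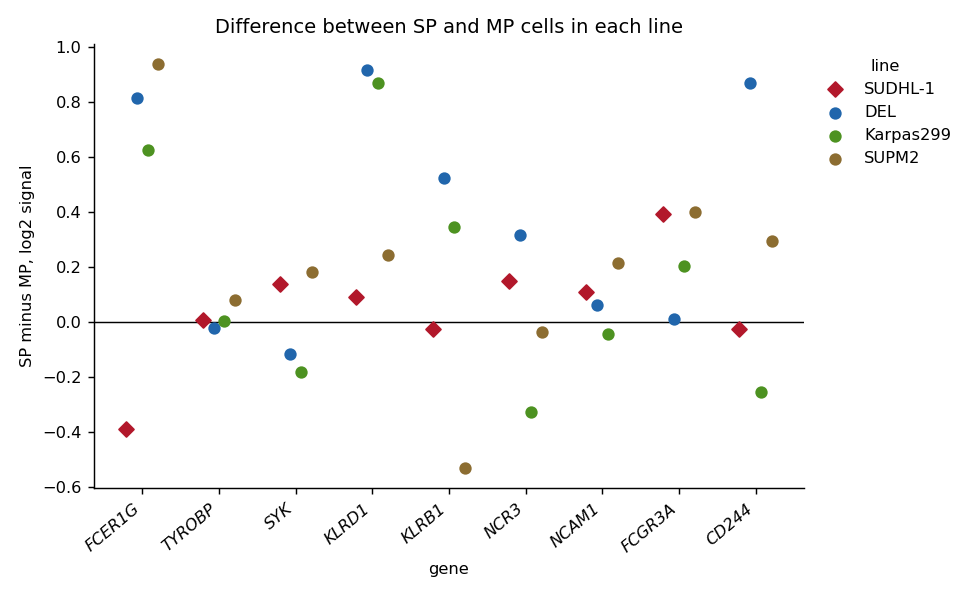
SP minus MP on the log2 scale (vertical axis) for each measured gene (horizontal axis), with 1 point per line; the diamond for SUDHL-1 is the difference of means of 3 arrays, and circles are differences between single arrays. FCER1G lies at -0.39 in SUDHL-1 and at 0.62 to 0.94 in the other lines.

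Of the other 8 members none passed limma's test in SUDHL-1 or over the 4 lines. KLRD1 was higher in SP cells in 4 of 4 lines, by 0.09 in SUDHL-1, 0.91 for DEL, 0.87 for Karpas299 and 0.24 for SUPM2. Its average was 0.53 ± 0.42 (SD, n = 4 lines), with a limma adjusted p of 0.918. FCGR3A was also higher in 4 of 4 lines, by 0.25 ± 0.18 (SD, n = 4 lines, limma adjusted p = 0.918), while 8.09% of all genes were higher in every line. In SUDHL-1 its difference of 0.39 was 0.13 without SP array 2. CD244 stood out in DEL alone, with 4.23 on the SP and 3.36 on the MP array, while its differences were -0.03 in SUDHL-1, -0.26 for Karpas299 and 0.29 for SUPM2.

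The averages of the remaining members were small, and each had lines of opposite sign. For TYROBP the average over lines was 0.02 ± 0.05 (SD, n = 4 lines), with a 95% interval of -0.22 to 0.26 in limma. SYK averaged 0.0053 ± 0.18 (interval -0.28 to 0.29), NCAM1 0.09 ± 0.11 (-0.17 to 0.34) and NCR3 0.03 ± 0.28 (-0.31 to 0.36). NCR3 differed by 0.32 for DEL and -0.33 for Karpas299. KLRB1 averaged 0.08 ± 0.47 (SD, n = 4 lines, interval -0.38 to 0.54) and was higher in SP cells of DEL (0.52) and Karpas299 (0.35) and lower in SP cells of SUPM2 (-0.53). The median SP minus MP difference of the 9 members was 0.09 over the lines, and that of all genes 0.02.

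To place the members in their pathway, 6 lists of further receptors, adaptors, kinases, negative regulators, ligands and transcription factors were used, with 108 measured genes that are no members. Of these 108, 2 were higher and 27 lower in SUDHL-1 by the rule above, where 5.14% and 11.7% of all genes were. After quantile normalization 4 were higher and 18 lower (6.53% and 6.65% of all genes), and after centring 7 were higher and 16 lower, while 2002 of all genes were higher and 839 lower. SP and MP cells differed in 0 of 108 by limma over the 4 lines, and 12 (11.11%) had an unadjusted p under 0.05, as did 4.91% of all genes. The lists were chosen with earlier results of these data known, and their genes may vary together. Nothing is therefore read from these counts.

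A list of ITAM-bearing and related adaptors, Fc receptor chains and linked receptors held 1 higher and 4 lower genes of 18 in SUDHL-1. Of all genes 5.14% were higher and 11.7% lower. The list had a median of -0.28, against -0.33 over all genes. After quantile normalization 2 were higher and 2 lower, and after centring 3 were higher and 2 lower. FCGR2A, an Fc receptor, was called higher under both other scalings (1.68 and 1.80), and FCER1A, an Fc receptor chain, after centring (1.09). Both were picked after their values were seen. CD247, the zeta chain of the T-cell receptor and a close relative of FCER1G, had signals of 4.06, 4.04 and 4.20 on SUDHL-1 SP arrays and 4.14, 4.23 and 3.96 on SUDHL-1 MP arrays. It had 5.45 and 4.66 on the SP and MP arrays of DEL, 7.51 and 7.62 on those of Karpas299, and 8.50 and 8.11 on those of SUPM2. The line with the brightest FCER1G thus had the dimmest CD247, and SUPM2 was at the opposite end for both, while Karpas299 lay above DEL for both. HCST, which signals for NKG2D without an ITAM, had a line mean of 5.60 in SUDHL-1, against 7.64 for DEL, 8.86 for Karpas299 and 9.94 for SUPM2.

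TREM1, a receptor that signals through TYROBP, was the adaptor-linked gene called higher in SUDHL-1 as deposited. Its mean there was 8.92, against 6.46 ± 0.74 over the other lines (SD, n = 3 lines). It ranged between 7.47 and 10.04 on the SUDHL-1 arrays and between 5.58 and 7.37 on the others. TREM1 had lower values in SP cells in 4 of 4 lines, with a mean difference of -0.42 ± 0.33 (SD, n = 4 lines, limma adjusted p = 0.918). CD79A, an adaptor of the B-cell receptor, averaged 0.47 ± 0.32 on the same scale (limma adjusted p = 0.918). CD3D, a T-cell receptor chain, had a line mean of 10.06 in SUDHL-1, against 5.68 for DEL, 9.63 for Karpas299 and 9.10 for SUPM2. CD3D was not called. Of the other CD3 chains, CD3E was called lower in SUDHL-1 (3.32, against 4.46 over the other lines) and lost the call under both other scalings. CD3G stood at 3.34 and 3.58 and was not called. The CD3 genes fall outside the naming rule and were picked after their values were seen.

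**Figure D4:**
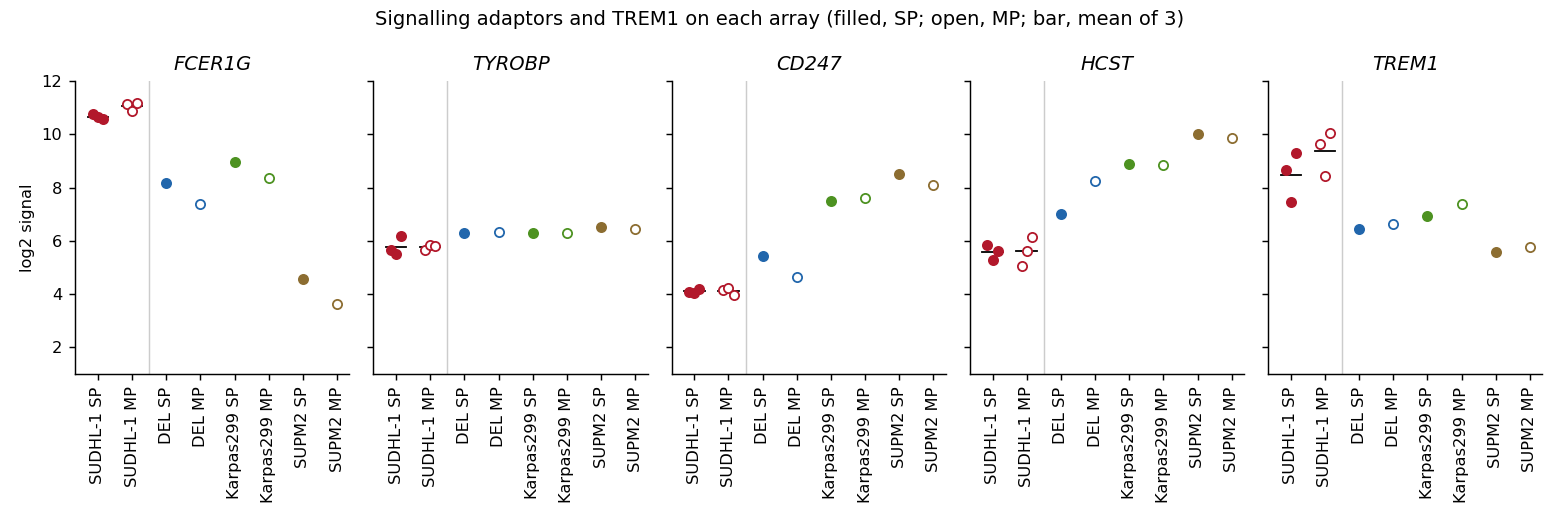
Log2 signal (vertical axis) of FCER1G, TYROBP, CD247, HCST and TREM1 on each array, by line and population (horizontal axis). FCER1G has its highest signals in SUDHL-1 and its lowest in SUPM2, while CD247 and HCST have their lowest in SUDHL-1 and their highest in SUPM2.

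Of 17 further NK receptors, 0 were higher and 5 lower in SUDHL-1, and after quantile normalization 4 were lower. Of all genes 11.7% were lower as deposited and 6.65% after quantile normalization. CD226 and CD96, receptors for the nectin-like protein PVR, stood at 3.59 and 2.78 in SUDHL-1, against means of 8.92 and 7.99 over the other lines. For CD226, SUDHL-1 MP array 3 read 5.90, while the other 5 SUDHL-1 arrays read 2.96 to 3.38. KLRC1 differed by -3.37, with a smaller gap to SUPM2 than to DEL and Karpas299. SLAMF6, a receptor of the same family as CD244, and CD160, a receptor of cytotoxic lymphocytes, had the smallest p for SP minus MP in this list, with averages of 0.25 ± 0.10 and 0.34 ± 0.35 (SD, n = 4 lines, limma adjusted p = 0.918 for each). The 7 KIR genes on the list and KLRC4 were not analysed here.

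Kinases and scaffolds downstream of ITAMs held 0 higher and 3 lower genes of 25 in SUDHL-1 as deposited. There were 1 higher and 1 lower after quantile normalization, and 2 higher and 0 lower after centring. Among all genes 5.14% were higher and 11.7% lower as deposited, and 6.53% and 6.65% after quantile normalization. The kinase TEC was called higher under both other scalings (1.22 and 1.39), and the phospholipase PLCG1 after centring (1.14); both were picked after their values were seen. SH2D1A, the adaptor of SLAM receptors such as CD244, differed by -1.77, VAV3 by -1.63 and SH3BP2 by -1.22, and of these 3 VAV3 alone kept the call after quantile normalization and none after centring. Without Karpas299 the differences were -0.88 for SH2D1A, which was then not called, and -1.06 for VAV3. In this list VAV1 averaged -0.43 ± 0.23 and LAT2, a scaffold, 0.38 ± 0.20 for SP minus MP (SD, n = 4 lines, limma adjusted p = 0.918 for each). The list of negative regulators held 7 lower and 0 higher genes of 17. PTPRC, among the lower, and PTPN11, which was not called, are phosphatases that can also promote such signalling. The list had a median of -0.78 as deposited and -0.65 after quantile normalization, where 6 were lower. Medians over all genes were -0.33 and 0.01. SLA, which promotes removal of T-cell receptor chains, stood at 3.44 in SUDHL-1 and 9.10 ± 0.75 over the other lines (SD, n = 3 lines). INPP5D, the lipid phosphatase SHIP-1, stood at 3.70 and 7.98 ± 0.68, and DOK1, a docking protein, at 5.19 and 6.80. PTPN6, the phosphatase SHP-1, averaged 0.48 ± 0.27 and SLA2 -0.25 ± 0.17 for SP minus MP over the lines (SD, n = 4 lines, limma adjusted p = 0.918 for each).

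Ligands of NK receptors held 0 higher and 3 lower genes of 17, where 5.14% of all genes were higher and 11.7% lower. After quantile normalization 2 were lower, as were 6.65% of all genes. RAET1E, ULBP1 and MICB, all ligands of NKG2D, differed by -2.06, -1.75 and -1.26 between SUDHL-1 and the other lines, and MICB lost the call after quantile normalization. CD48, the ligand of CD244, averaged -0.49 ± 0.35 and CLEC2B, the ligand of the receptor KLRF1, 0.45 ± 0.37 for SP minus MP (SD, n = 4 lines, limma adjusted p = 0.918 for each). Among transcription factors of NK and innate lymphoid cells, 1 of 14 was higher and 5 were lower, against the same shares of all genes. After quantile normalization 1 was higher and 3 were lower. GATA3, a T-helper factor, was higher by 1.10, while TOX, RUNX3 and ETS1 differed by -2.24, -1.95 and -1.94. TOX lost the call after quantile normalization and differed by -1.01 without Karpas299, and GATA3, RUNX3 and ETS1 kept it under both other scalings. GATA3 and TOX2 averaged 0.61 ± 0.46 and 0.43 ± 0.32 for SP minus MP (SD, n = 4 lines, limma adjusted p = 0.918 for each).

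**Figure D5:**
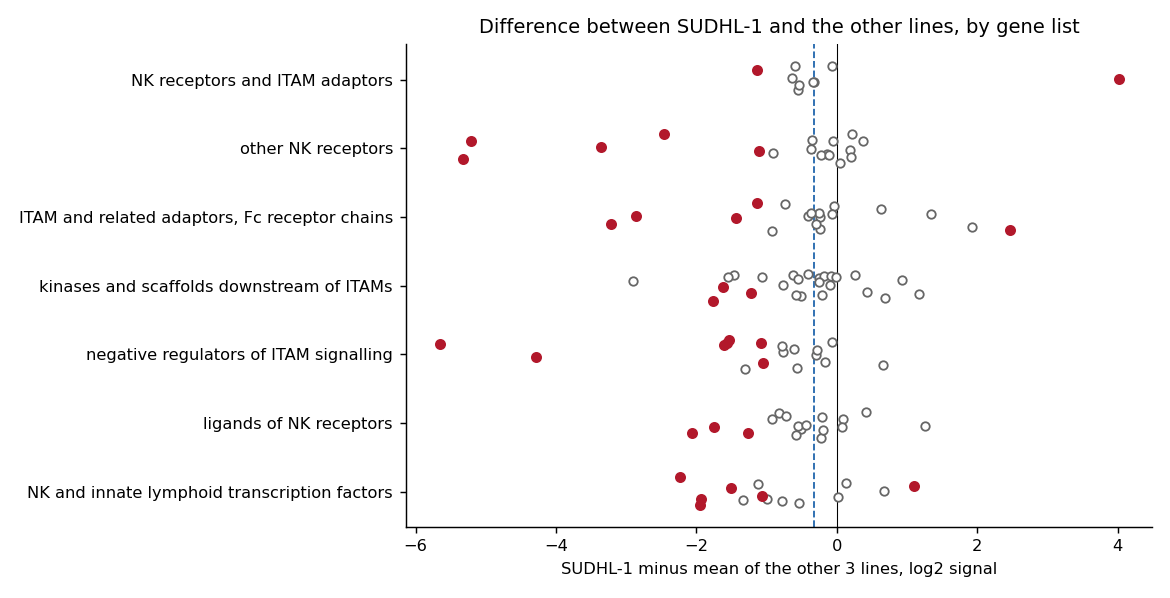
SUDHL-1 minus the mean of the other 3 lines on the log2 scale (horizontal axis) for each gene of the lists (rows; vertical scatter within a row carries no meaning). Filled points passed the rule of at least 1 without overlap, open points did not, and the dashed line is the median of all genes, -0.33; FCER1G is the point at 4.01.

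By a distance over the 8 line-by-population means, with each gene centred on its own mean, the profile of FCER1G was most like those of CD44, POLA1, GINS1, CDC6 and GZMA. The root mean square differences were 0.87 to 0.95 on the log2 scale. None of these genes shared the signs of the FCER1G SP minus MP difference in every line. In Karpas299, SP lay below MP for POLA1 (-0.59), GINS1 (-0.35), CDC6 (-0.56) and GZMA (-0.51). For CD44 the difference was 0.04 in SUDHL-1 and -0.0041 in SUPM2. CD44, an adhesion receptor, averaged 10.40 on SP and 10.36 on MP arrays of SUDHL-1 and had 5.60 on both arrays of SUPM2. POLA1 averaged 10.30 (SP) and 10.29 (MP) in SUDHL-1, against 5.50 and 5.16 in SUPM2. GINS1 had 10.14 and 9.88, against 5.78 and 4.70. CDC6 had 9.74 and 9.75, against 5.37 and 4.37. GZMA, a granzyme of killer cells, averaged 9.59 (SP) and 10.73 (MP) in SUDHL-1. Its SUPM2 signals were 3.88 (SP) and 3.62 (MP). Karpas299 gave 9.90 (SP) and 10.415 (MP) for GZMA, and the line mean was 10.16 in both Karpas299 and SUDHL-1. GZMA was not called, since SUDHL-1 arrays overlapped the others. For TYROBP the nearest profiles were KRTAP23-1, ACTL6B, ADCY8, LGR6 and ZNF784 at 0.04 each, and for SYK they were CRX, IL22RA2, MC5R, CCDC87 and CAMKV at 0.05 to 0.06. These distances used deposited values and were not scaled to the range of a gene. The line means of TYROBP and SYK spanned only 0.70 and 0.58, so other flat genes lie close to them and no shared role is read from this.

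On chromosome 1 the gene order around FCER1G was used to see whether its neighbours share the pattern. Of the 5 measured genes on each side, UFC1 was higher in SUDHL-1 (1.52), PPOX, B4GALT3 and SDHC were lower (-1.89, -1.52 and -1.68), and USP21, ADAMTS4, APOA2, TOMM40L, NR1I3 and PCP4L1 were neither. Next to FCER1G, ADAMTS4 differed by -0.35 and APOA2 by 0.68 as deposited, and by 0.11 and 1.12 after quantile normalization. NR1I3 then differed by 1.23, UFC1 by 1.32, and PPOX, B4GALT3 and SDHC by -1.47, -1.42 and -1.84. USP21, TOMM40L and PCP4L1 then lay at 0.06 to 0.73. Calls of the neighbours were made on the deposited values only, where 16.8% of all genes were called in either direction. SUPM2, the line with the dimmest FCER1G, had the highest deposited mean of the 4 lines for USP21, PPOX, PCP4L1 and SDHC. It had the lowest for APOA2 (4.967, against 4.973 for DEL and 5.025 for Karpas299). For UFC1, B4GALT3, ADAMTS4, TOMM40L and NR1I3 it lay between other lines.

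The arrays were also read for cell type markers, and the genes named here were picked after their values were seen. Of 14 ALCL markers, 10 lay above the array median on all SUDHL-1 arrays, against 12, 13 and 13 on those of DEL, Karpas299 and SUPM2, and 0 were called higher and 7 lower in SUDHL-1. After quantile normalization 0 were higher and 6 lower, and after centring 2 were higher and 3 lower. Of all genes, 5.14% were higher and 11.7% lower as deposited, and 6.53% and 6.65% after quantile normalization. TNFRSF8, the CD30 antigen that defines ALCL, stood at 7.02 in SUDHL-1 and 8.74 over the other lines, and IL2RA, an activation marker common in ALCL, at 12.01 and 11.39. ALK was not analysed here.

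FCER1G is also a gene of myeloid cells, mast cells and NK cells. Of 14 myeloid markers, 2 lay above the array median on all SUDHL-1 arrays and 5, 5 and 4 on those of DEL, Karpas299 and SUPM2, with list means of 4.57 to 4.97 on SUDHL-1 arrays and 5.37 to 5.75 elsewhere. Of these 14, 0 were called higher and 3 lower in SUDHL-1, where 11.7% of all genes were lower. After quantile normalization and after centring, 0 were higher and 2 lower. The median difference of the list was -0.47 as deposited and -0.0001 after quantile normalization, against -0.33 and 0.01 over all genes. Line means of the myeloid markers in SUDHL-1 ran between 2.85 for LYZ, a lysozyme, and 8.57 for CD68, a lysosomal protein, with 4.66 for CD14 and 5.73 for SPI1. Of 7 mast cell markers 0 lay above the median on all SUDHL-1 arrays, and 0 were called higher and 1 lower in SUDHL-1. After quantile normalization 0 were higher and 0 lower, and after centring 1 was higher (FCER1A) and 0 lower. FCER1A lay at 2.98 to 3.60 on SUDHL-1 arrays and at 2.47 to 2.84 elsewhere. Of 12 NK cell markers, 5 lay above the median on all SUDHL-1 arrays and 7, 5 and 3 on those of DEL, Karpas299 and SUPM2. NKG7 was called higher in SUDHL-1 among these 12, and KLRC1, PRF1 and IL2RB lower, where 5.14% of all genes were higher and 11.7% lower. After quantile normalization 0 were higher and 3 lower, and after centring 1 was higher and 3 were lower. NKG7, a granule protein of killer cells, had a line mean of 11.94 in SUDHL-1, against 11.60 for DEL, 11.47 for Karpas299 and 8.59 for SUPM2. NKG7 lost the call after quantile normalization and kept it after centring (1.85). PRF1, the pore-forming perforin, ran in another order, with 9.09 in SUDHL-1, against 11.56 for DEL, 10.79 for Karpas299 and 11.67 for SUPM2. The part of such cells or programmes in the FCER1G result was not tested.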

How the data were processed

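The deposited values are log2 signals per probe set that the authors made; the submitters' processing notes name RMA, without a version; the scanner files were not used here. RNA from sorted cells was amplified with a kit for very small amounts before labelling, per the labels' protocols. All 12 columns were used as deposited, and 0 were left out. Of 33297 probe sets, 19460 had 1 gene symbol in the platform annotation, 1754 several and 12083 none; 19429 matched RefSeq by Entrez identifier. No gene was named from a probe set with several. The probe set with the highest mean stood for a gene, which left 18417 genes. Arrays have no read depth, so their number limits the precision.

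Limma 3.58.1 (R 4.3.3) gave SP minus MP for all genes, within SUDHL-1 (6 arrays) and over 4 within-line differences, two-sided, with Benjamini-Hochberg adjustment and a threshold of 0.05. SUDHL-1 was set against the other lines without a test. The fits were also run on simulated data that had the spread of the SUDHL-1 arrays. No variation of SP minus MP between lines was simulated, so this does not check the fits that span lines.

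The members and gene lists were chosen with earlier results of these data known. The named genes are all measured members, from each list up to 3 with the largest line difference among those called and the 2 of smallest p for SP minus MP over the lines, and 5 nearest profiles for FCER1G, TYROBP and SYK. The comparison of chromosomal neighbours, the shared probe sets and the fit over 12 arrays were added after the data were seen. Alternatives left out dim genes (lowest 25%), normalized or centred again, averaged probe sets, changed the variance model, blocked on replicate number, and left out arrays, lines or a population.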

Additional observations from a re-analysis of the deposited data

Results flagged for a closer look

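The SP minus MP difference of FCER1G ran in opposite directions, lower in SP cells of SUDHL-1 on every array and higher in SP cells of DEL, Karpas299 and SUPM2. In the fit over all 12 arrays SUDHL-1 lay below the other lines by a difference of -1.18 on the log2 scale. Limma's test of that difference did not pass after adjustment over all genes (adjusted p = 0.738, and 0.644 to 1 over the alternatives). DEL, Karpas299 and SUPM2 each rest on 1 SP and 1 MP array. SUDHL-1 is a single line, so the p of this fit reflects mostly the spread among its arrays, not among lines.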

How the results depend on the processing

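Between SUDHL-1 and the other lines, 3097 genes were called as deposited, 638 when a difference of at least 2 was asked for, and 3035 to 3489 with 1 array or line left out. The difference of FCER1G was 2.64 (without SUPM2) to 4.92 with 1 array or line left out, 3.42 on SP arrays alone and 4.61 on MP arrays alone, and it was called under every alternative run. NCAM1 was called under all of these except after quantile normalization, after centring and when a difference of 2 was asked for. Limma called 0 genes for SP minus MP in SUDHL-1 and over the lines under every alternative, with 577 and 904 genes at an unadjusted p under 0.05 in the deposited values; the replicate block also gave 0, and deviations of same-numbered arrays correlated at -0.0037, -0.08 and -0.13, so the numbers were not taken as pairs. Among uncalled members, the sign changed with 1 array left out in SUDHL-1 for TYROBP (-0.20 to 0.15), SYK (-0.10 to 0.29), KLRB1 (-0.07 to 0.0059), NCAM1 (-0.0147 to 0.19) and CD244 (-0.1731 to 0.0905). Over the lines it changed, with 1 array or line left out, for TYROBP (-0.0337 to 0.0523), SYK (-0.0536 to 0.0678), KLRB1 (-0.0703 to 0.2812) and NCR3 (-0.0721 to 0.1431), and for SYK after quantile normalization (-0.0245) and centring (-0.0068); the cause was not tested. The average SP minus MP difference of FCER1G over the lines was 0.35 to 0.79, the highest without SUDHL-1. Genes near the lowest signals have little room to fall, and no control probes were used to set a background.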
